A study of Glycine max with 6 samples.

Results

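Soybean ferritin genes were described in the leaf transcriptomes of the genotypes HN44 and SN14. The group consists of SFERH-2, H-1, SFERH-3 and SFERH-4, which are 4 of the 41759 genes in the authors' table and were found there by the NCBI gene numbers of those symbols. The genes were chosen by name after their FPKM in HN44 and SN14 had been seen, in particular that of SFERH-2, so their differences between the genotypes are a description and carry no test. Leaf RNA of field-grown Glycine max plants, under natural conditions and with no treatment named, was sequenced on a BGI platform, as 3 libraries of HN44 and 3 libraries of SN14. Water use efficiency is the trait in which the series sets them apart, but the labels do not say which is the more efficient. Leaf age, hour of sampling and the number of plants behind a genotype are not stated in them either, so p-values reflect library-to-library spread that could be technical.

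Ferritin is a hollow protein shell that takes up ferrous iron, oxidises it and stores it as a mineral core. Plant ferritins are encoded in the nucleus and imported into plastids, where they keep iron that is not yet built into photosynthetic and other proteins from reacting with oxygen species. In plants the amount of ferritin follows iron and oxidative stress mainly through transcription, and soybean was one of the first plants in which ferritin genes were studied.

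Values are FPKM as the authors deposited them, that is, fragments per transcript length and sequencing depth, so levels of different genes can be set side by side. HN44-3 stood apart in one way that touches every HN44 value. Mixing HN44-1 and HN44-2 in the proportions 0.57 and 0.43 matched HN44-3 to within 0.057 (median absolute deviation on the log2 scale) over the 15790 tested genes that averaged 5 FPKM or more. HN44-3 took an intermediate value for 1966 of the 1980 such genes with a difference above 2-fold among the other HN44 libraries. Means and SD of HN44 are therefore those of HN44-1 and HN44-2 (n = 2), those of SN14 are of its 3 libraries (n = 3), and HN44-3 is given beside them. Fits that include HN44-3 count it as a separate library, so their SE and p could be too small. Markers of the leaf were abundant: the Rubisco small subunit gene RBCS1 had between 14284 and 29373 FPKM in HN44 and between 35455 and 37597 FPKM in SN14. Of the nodule list, ENOD93 reached at most 0.26 FPKM and ENOD55-2 at most 0.59 FPKM, while NOD33 had between 2.26 and 8.23 FPKM in HN44 and between 2.66 and 6.48 FPKM in SN14. The seed storage gene GY3 reached at most 0.07 FPKM in any library.

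All 4 ferritin genes were at a higher level in each HN44 library than in any SN14 library. Such a separation was found for 23.3% of the 27140 tested genes, so it is not rare in these libraries. In the lowest HN44 library SFERH-2, H-1 and SFERH-4 exceeded 2 times the highest SN14 library, which was the case for 1.46% of the tested genes. The summed level of the 4 genes was 1182, 1456 and 1287 FPKM in HN44-1, HN44-2 and HN44-3, against 337, 415 and 315 FPKM in SN14-1, SN14-2 and SN14-3. The sum was thus 3.71 times as high in HN44, with an average of 1319 ± 194 FPKM (SD, n = 2) against 356 ± 52.6 FPKM (SD, n = 3) for SN14. Of all FPKM of a library, the ferritin sum took 0.166% ± 0.016 (SD, n = 2) in the HN44 libraries, against 0.041% ± 0.0059 (SD, n = 3) in the SN14 libraries.

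SFERH-2 (NCBI gene 547988, synonym Fer1-1) had the highest level of the ferritin genes in HN44 and the widest difference between the genotypes. It lies on the minus strand of chromosome 1, from 42969651 to 42973069 in the authors' coordinates; the build they used is not stated in the labels, and chromosome numbers are those of RefSeq Glycine_max_v4.0. Its level was 665, 644 and 648 FPKM in HN44-1, HN44-2 and HN44-3, against 117, 132 and 98.95 FPKM in SN14-1, SN14-2 and SN14-3. The HN44 libraries lay close together, and the lowest of them was 4.89 times the highest SN14 library. In order of abundance, the gene was between the 130th and the 152nd of all genes in the HN44 libraries and between the 768th and the 986th in the SN14 libraries. The fitted difference was 2.49 ± 0.17 (SE) on the log2(FPKM + 1) scale with 6 libraries, and 2.5 ± 0.24 (SE) without HN44-3. Of all 27140 tested genes, 99 had a larger difference in favour of HN44. Among the 1200 tested genes that averaged 100 FPKM or more in HN44 or SN14, the SFERH-2 difference was the 13th largest.

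H-1 (NCBI gene 547824, synonyms SFerH-1 and SOF-35) was the ferritin gene that varied most within HN44. It lies on the minus strand of chromosome 18, from 48947697 to 48950617. Its level was 206, 534 and 333 FPKM in HN44-1, HN44-2 and HN44-3, against 87.05, 81.4 and 76.5 FPKM in SN14-1, SN14-2 and SN14-3. The SN14 libraries lay close together, whereas HN44-2 stood 2.59 times as high as HN44-1, with HN44-3 between them. This step between HN44-1 and HN44-2, 1.37 on the log2 scale, was larger than that of 94.3% of those 15790 genes. The HN44 mean was 370 ± 232 FPKM (SD, n = 2) and the SN14 mean 81.6 ± 5.29 FPKM (SD, n = 3). The fitted log2 difference was 2.01 ± 0.33 (SE), and 2.01 ± 0.42 without HN44-3. It was 1.67 without HN44-2 and 2.36 without HN44-1, a range that reflects the gap between those libraries.

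**Figure D1:**
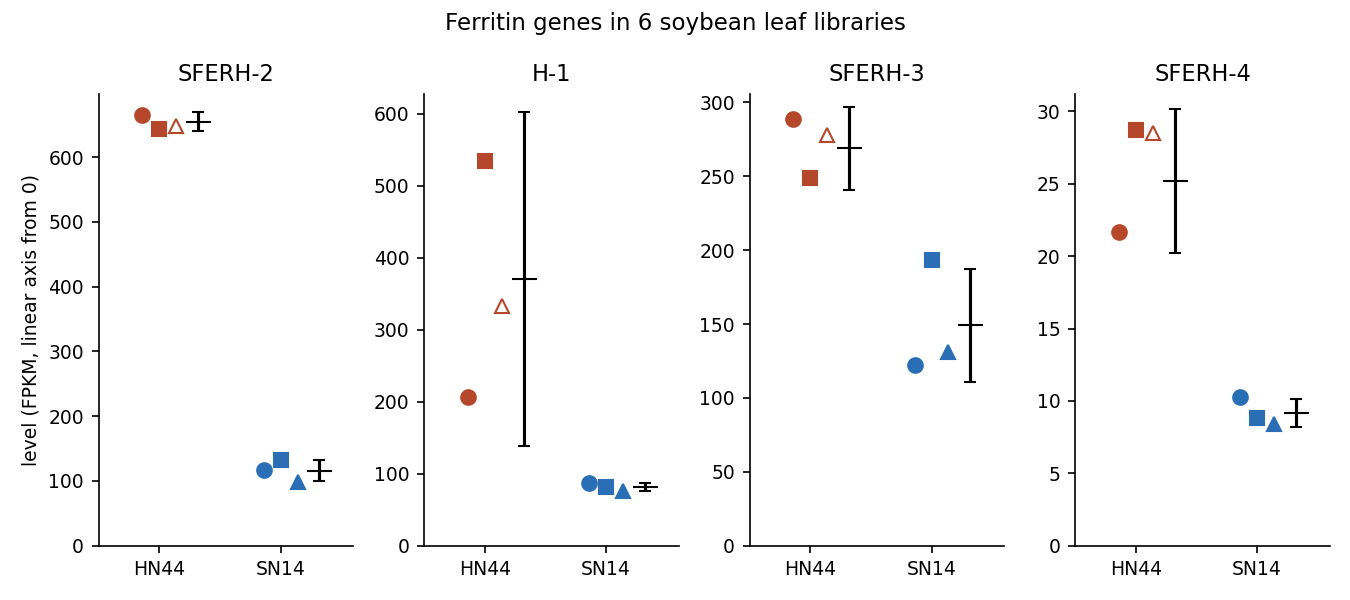
Level of each ferritin gene in FPKM (linear axis from 0) in the HN44 libraries (red) and the SN14 libraries (blue), where the circle, square and triangle are libraries 1, 2 and 3, the open triangle is HN44-3, and black bars mark mean ± SD, over HN44-1 and HN44-2 (n = 2) and over the SN14 libraries (n = 3). The 3 HN44 libraries of SFERH-2 sit between 644 and 665 FPKM, while those of H-1 spread from 206 to 534 FPKM.

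SFERH-3 (NCBI gene 547476) had the smallest difference between the genotypes and was the most abundant ferritin gene in SN14. It lies on the minus strand of chromosome 11, from 32786934 to 32793748. Its level was 289, 249 and 278 FPKM in HN44-1, HN44-2 and HN44-3, against 123, 193 and 131 FPKM in SN14-1, SN14-2 and SN14-3. The genotypes did not overlap, but SN14-2 came near the HN44 libraries, and the lowest HN44 library was 1.29 times SN14-2. It averaged 269 ± 27.9 FPKM (SD, n = 2) in the HN44 libraries, against 149 ± 38.5 FPKM (SD, n = 3) in the SN14 libraries. The fitted log2 difference was 0.89 ± 0.21 (SE), and 0.87 ± 0.28 without HN44-3. All tested genes together had a median difference of 0.17 on this scale.

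Another gene model shares the place of SFERH-3. LOC100805950, on the same strand, starts at the same base as SFERH-3 and ends at 32790258, so it lies wholly within the SFERH-3 span. Its level was 35.2 FPKM in HN44-1, 69.6 FPKM in HN44-2 and 57.5 FPKM in HN44-3, while each SN14 library lists it at 0. How reads were divided between the overlapping models was not tested. With both models summed, a choice made after these values were seen, the locus had 324, 319 and 335 FPKM in HN44-1, HN44-2 and HN44-3 against the same 123, 193 and 131 FPKM in SN14-1, SN14-2 and SN14-3. The log2 difference of the sum was 1.15. The spans of the other 3 ferritin genes met no other gene of the table.

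SFERH-4 (NCBI gene 547477) was the least abundant ferritin gene in every library. It lies on the plus strand of chromosome 14, from 4541233 to 4543790. Its level was 21.7, 28.7 and 28.5 FPKM in HN44-1, HN44-2 and HN44-3, against 10.3, 8.84 and 8.42 FPKM in SN14-1, SN14-2 and SN14-3. The lowest HN44 library was 2.11 times the highest SN14 library. It averaged 25.2 ± 4.95 FPKM (SD, n = 2) in the HN44 libraries, against 9.18 ± 0.98 FPKM (SD, n = 3) in the SN14 libraries. The fitted log2 difference was 1.42 ± 0.18 (SE), and 1.35 ± 0.24 without HN44-3. SFERH-4 was also the member whose HN44-3 value lay farthest from that mixture of HN44-1 and HN44-2, at 15.3% above it, where SFERH-2, H-1 and SFERH-3 lay -1.2%, -4.12% and 2.34% from theirs.

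The make-up of the ferritin sum differed between the genotypes as well as its size. SFERH-2 held 56.3%, 44.3% and 50.4% of the sum in HN44-1, HN44-2 and HN44-3, against shares of 34.7%, 31.7% and 31.4% in SN14-1, SN14-2 and SN14-3. SFERH-3 went the other way, with 24.4%, 17.1% and 21.6% in HN44-1, HN44-2 and HN44-3, against shares of 36.4%, 46.5% and 41.7% in SN14-1, SN14-2 and SN14-3. For both genes the shares of the genotypes did not overlap. The share of H-1 was 17.4%, 36.7% and 25.8% in HN44-1, HN44-2 and HN44-3, against shares of 25.8%, 19.6% and 24.3% in SN14-1, SN14-2 and SN14-3, so the genotypes overlapped. SFERH-4 held between 1.84% and 2.21% in the HN44 libraries and between 2.13% and 3.05% in the SN14 libraries.

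The order of the genes followed from these shares. In each HN44 library SFERH-2 came first, and H-1 and SFERH-3 overlapped below it: SFERH-3 was above H-1 in HN44-1 and below it in HN44-2 and HN44-3. In each SN14 library the order was SFERH-3, SFERH-2, H-1 and SFERH-4, although the ranges of SFERH-3 and SFERH-2 over the SN14 libraries overlapped. The ratio of SFERH-2 to SFERH-3, which does not depend on how a library was scaled, was 2.31, 2.59 and 2.33 in HN44-1, HN44-2 and HN44-3, against values of 0.955, 0.682 and 0.754 in SN14-1, SN14-2 and SN14-3. With LOC100805950 added to SFERH-3 the ratio was between 1.93 and 2.06 in the HN44 libraries, still above each SN14 library. Of the difference of 963 FPKM between the mean sums of HN44 and SN14, SFERH-2 made up 55.97%, H-1 29.9%, SFERH-3 12.4% and SFERH-4 1.66%.

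**Figure D2:**
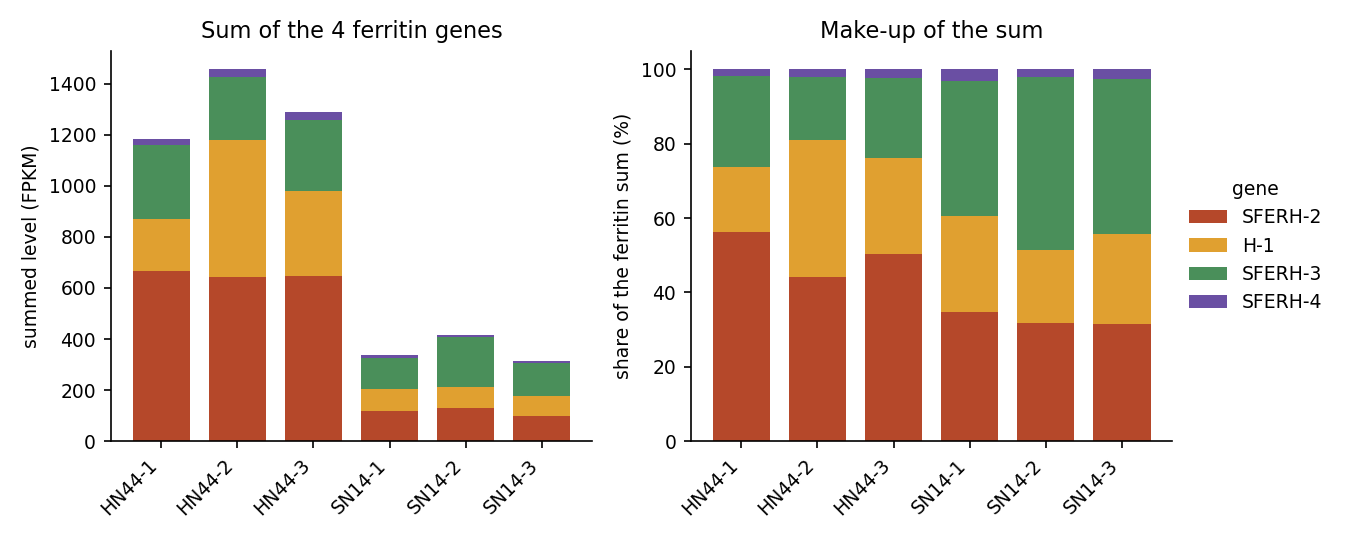
Stacked bars give, for each library, the FPKM of the ferritin genes on the left and their percentage of the ferritin sum on the right, with colours for SFERH-2, H-1, SFERH-3 and SFERH-4 from the bottom up. The sum lies between 1182 and 1456 FPKM in the HN44 bars and between 315 and 415 FPKM in the SN14 bars, and the SFERH-3 part is widest in SN14-2, at 46.5%.

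Within a genotype the ferritin genes did not move as one. Of the HN44 libraries, HN44-2 was the highest for H-1 and SFERH-4 and the lowest for SFERH-2 and SFERH-3. The step from HN44-1 to HN44-2 on the log2 scale was 1.37 for H-1 and 0.39 for SFERH-4, and -0.05 and -0.21 for SFERH-2 and SFERH-3. In SN14 the library SN14-2 was the highest for SFERH-3 and SFERH-2, at 1.58 and 1.13 times SN14-1, while H-1 and SFERH-4 were highest in SN14-1. H-1 and SFERH-4 ranked the libraries of each genotype in the same order. SFERH-2 and SFERH-3 did so in HN44, but in SN14 SFERH-2 was lowest in SN14-3 and SFERH-3 in SN14-1. Over both genotypes, log2 patterns were compared by their root mean square difference, each pattern centred on its mean over the 6 libraries. This measure includes the difference between the genotypes. It was smallest for SFERH-3 with SFERH-4, at 0.40, and for H-1 with SFERH-4, at 0.42. It was largest for SFERH-2 with SFERH-3, at 0.82, and 0.48 for SFERH-2 with H-1. SFERH-3 and SFERH-4 did not move together within a genotype, as HN44-2 and SN14-1 were each the lowest of their genotype for SFERH-3 and the highest for SFERH-4.

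**Figure D3:**
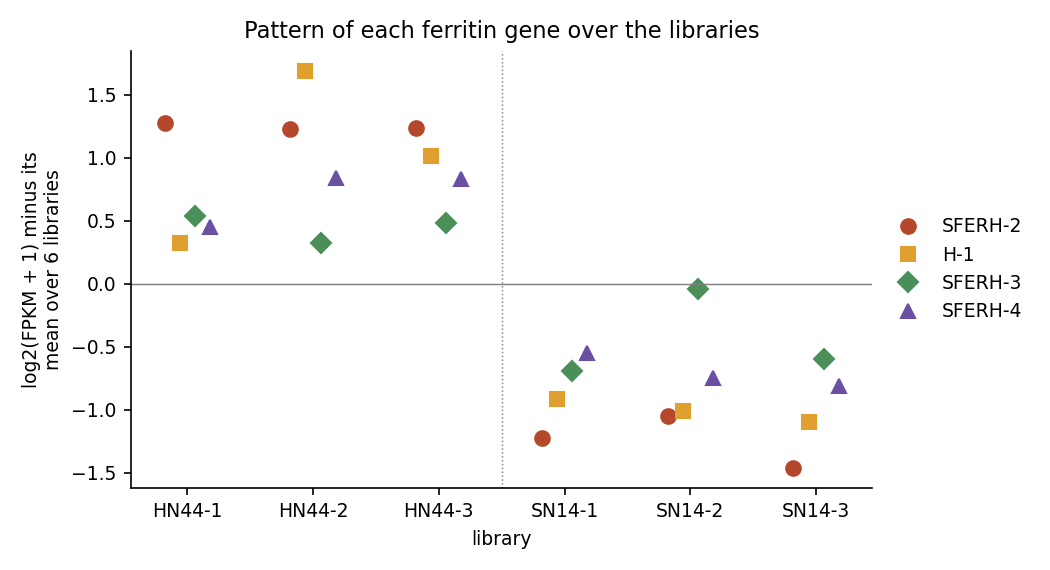
Each point is the log2(FPKM + 1) of a ferritin gene in a library minus the mean of that gene over the 6 libraries, with HN44 left and SN14 right of the dotted line. H-1 runs from 0.32 in HN44-1 to 1.69 in HN44-2, and SFERH-3 in SN14-2 lies at -0.04, close to its own mean.

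Genes with the pattern most like each ferritin gene were sought among the 1000 other tested genes that carry a symbol or synonym and range over at least 1 on the log2 scale, by the same root mean square difference over the 6 libraries. For SFERH-2 the nearest were LOC547562 and LOC100795233, both with the synonym KNBS1, a name of disease resistance genes, at 0.26 and 0.28, followed by R1 at 0.37. LOC547562 had 6.42, 10.6 and 8.26 FPKM in HN44-1, HN44-2 and HN44-3, against 0.80, 0.60 and 0.78 FPKM in SN14-1, SN14-2 and SN14-3. LOC100795233 had at most 0.42 FPKM in SN14. At such low values the added 1 FPKM shrinks the difference between the genotypes, so the likeness of this pair depends on that scale. Within HN44, LOC547562 rose from HN44-1 to HN44-2, which SFERH-2 did not. The same pair came nearest to H-1, at 0.28 for LOC100795233 and 0.30 for LOC547562, followed by the transcription factor gene WRKY55 at 0.31. For SFERH-4 the nearest were SOMT-9, IQD32 and BZIP53B, at 0.20, 0.22 and 0.27. IQD32 had at most 0.54 FPKM in SN14, so the same limit holds for it. These likenesses include the difference between the genotypes and describe 6 libraries of which HN44-3 is no separate pattern.

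SFERH-3 had closer matches by this measure than any other ferritin gene. The measure is not scaled by range, and SFERH-3 ranged least. Its log2 values ranged over 1.23, against 2.74 for SFERH-2, 2.79 for H-1 and 1.66 for SFERH-4. The part of the small range in the closeness was not tested. RCABETA, which encodes Rubisco activase, the chaperone that frees Rubisco of bound sugar phosphates, had a root mean square difference of 0.060 from SFERH-3. RCABETA had 9877, 7872 and 8867 FPKM in HN44-1, HN44-2 and HN44-3, against 4121, 6898 and 4316 FPKM in SN14-1, SN14-2 and SN14-3. Its ratio to SFERH-3 stayed between 31.6 and 35.7 over the 6 libraries. The second and the third were MYB114, whose synonym GmLHY2b marks it as a relative of the clock gene LHY, at 0.074, and LOC100800779 (GmTCP51) at 0.084. MYB114 had 274, 221 and 244 FPKM in HN44-1, HN44-2 and HN44-3, against 118, 161 and 123 FPKM in SN14-1, SN14-2 and SN14-3, a ratio to SFERH-3 between 0.834 and 0.967. The other ferritin genes lay far behind in this order, SFERH-4 as the 234th, H-1 as the 570th and SFERH-2 as the 623rd. Such places include the difference between the genotypes, which was wider for each of these genes than for SFERH-3. These matches and ratios are for SFERH-3 without LOC100805950, the overlapping model with a level above 0 in HN44 only. With that model added, both ratios would be lower in each HN44 library and unchanged in SN14. Patterns like that of the summed locus were not sought.

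The tested genes of the iron handling list, which were NRAMP genes, IRT and HMA8, did not pass the test. The comparison of HN44 with SN14 by limma on log2(FPKM + 1), with Benjamini-Hochberg adjustment over the 27140 tested genes, called 2.33% of them higher and 1.44% lower in HN44 at an adjusted p of 0.05, and without HN44-3 0.387% higher and 0.166% lower. Of 18 genes that matched the iron handling list, 9 were tested, and with and without HN44-3 none of them passed in either direction. At the shares called among all tested genes, hardly any call would be found among 9 genes. The count therefore does not set this list apart. An unadjusted p under 0.05 was found with 6 libraries for 1 of the 9, beside 7419 of all 27140 tested genes, or 27.3%. Without HN44-3 that count over all tested genes was 3830, and no such count was made for the lists. Their median log2 difference was 0.22, beside 0.17 for all tested genes. NRAMP genes encode metal transporters. NRAMP6A had 0.94, 1.73 and 0.85 FPKM in HN44-1, HN44-2 and HN44-3, against 2.06, 2.08 and 3.10 FPKM in SN14-1, SN14-2 and SN14-3. Its log2 difference was -0.66 ± 0.22 (SE, limma adjusted p = 0.124, and 0.398 without HN44-3). NRAMP3A had a difference of 0.40 ± 0.17 (limma adjusted p = 0.196), and HMA8, of the heavy metal ATPase family, 0.29 ± 0.22 (limma adjusted p = 0.405). IRT, named after the iron-regulated transporters of roots, was between 0.77 and 1.86 FPKM in HN44 and between 0.31 and 2.14 FPKM in SN14.

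Among genes for enzymes that remove reactive oxygen, which ferritin limits by binding iron, none of the tested members passed with 6 libraries or without HN44-3. The redox list matched 39 genes, of which 25 were tested; 13 of the 25 had an unadjusted p under 0.05, beside 27.3% of all tested genes. It took in growth-regulating factor genes of the GRF series and 2 other genes by their initials. The 17 tested genes without these, a choice made by name after the values were seen, had a median log2 difference of 0.29. An unadjusted p under 0.05 was found with 6 libraries for 9 of the 17. In each HN44 library 5 of the 17 were higher and 5 lower than in any SN14 library, where 23.3% and 10.5% of all tested genes were so. The 4 dehydroascorbate reductase genes DHAR1, DHAR2, DHAR3 and DHAR4, for enzymes that restore ascorbate, were among the lower ones, and AOX2 was the other. The higher ones were APX1, APX2, CAT4, GR and AOX1. AOX1 had the largest rise of the list, a log2 difference of 1.35 ± 0.47 (SE, limma adjusted p = 0.133, and 0.370 without HN44-3). DHAR3 had 70.0, 90.4 and 75.7 FPKM in HN44-1, HN44-2 and HN44-3, against 168, 125 and 123 FPKM in SN14-1, SN14-2 and SN14-3. Its log2 difference was -0.80 ± 0.20 (SE; limma adjusted p = 0.0718, and 0.309 without HN44-3). DHAR4 had a difference of -1.13 ± 0.33 (limma adjusted p = 0.097, and 0.318 without HN44-3). Of the fits run, DHAR4 passed in the one without SN14-3, at a limma adjusted p of 0.0454. That fit kept HN44-3.

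Ascorbate peroxidase genes, whose enzymes use ascorbate to remove hydrogen peroxide, did not pass. APX2 had 414, 329 and 365 FPKM in HN44-1, HN44-2 and HN44-3, against 199, 266 and 115 FPKM in SN14-1, SN14-2 and SN14-3. Its log2 difference was 1.00 ± 0.31 (SE, limma adjusted p = 0.108, and 0.338 without HN44-3). APX1 had a difference of 0.95 ± 0.33 (limma adjusted p = 0.129, and 0.371 without HN44-3). CAT4, a catalase gene, had 1515, 1172 and 1337 FPKM in HN44-1, HN44-2 and HN44-3, against 620, 1128 and 574 FPKM in SN14-1, SN14-2 and SN14-3. Its log2 difference was 0.85 ± 0.29 (limma adjusted p = 0.124, and 0.363 without HN44-3). CAT4 passed in the fit without SN14-2, at a limma adjusted p of 0.0416. That fit kept HN44-3. The iron superoxide dismutase gene SODB2, whose enzyme holds iron itself, overlapped between the genotypes, with 885, 1287 and 1080 FPKM in HN44-1, HN44-2 and HN44-3, against 619, 1457 and 740 FPKM in SN14-1, SN14-2 and SN14-3. Of the redox genes, DHAR1, DHAR2, DHAR4, APX1, APX2, CAT4, GR, AOX1, AOX2 and SODB2 were named after their values had been seen, and so were IRT above and the haem and phytoglobin genes below. GRF1 and GRF8, caught by the list but of another family, had the smallest p beside DHAR3, with limma adjusted p of 0.0718 and 0.0741.

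The iron cofactor list was drawn up for haem synthesis and for haem or iron-sulfur proteins, but its names matched no gene for an iron-sulfur protein. The list had 12 tested genes of 26 matched, and none passed. An unadjusted p under 0.05 was found for 4 of the 12, near the 27.3% of all tested genes. Most of its matches were LBD transcription factor genes caught by their initials, and the 3 with the smallest p, HOP1, LOC100810223 and LBD23, are of other families too (limma adjusted p = 0.0546, 0.0763 and 0.0813). The 5 tested genes left by name were HEMB, GSA1, LOC100809295, HO1 and HO3, with a median log2 difference of -0.67. HEMB, for an early enzyme of haem and chlorophyll synthesis, had 83.5, 152 and 110 FPKM in HN44-1, HN44-2 and HN44-3, against 214, 160 and 191 FPKM in SN14-1, SN14-2 and SN14-3. Its log2 difference was -0.74 ± 0.25 (SE, limma adjusted p = 0.128, and 0.375 without HN44-3). LOC100809295, a phytoglobin gene with the synonym GmGLB1-1, had 55.7, 249 and 141 FPKM in HN44-1, HN44-2 and HN44-3, against 362, 187 and 329 FPKM in SN14-1, SN14-2 and SN14-3. Its genotypes overlapped (log2 difference -1.16 ± 0.54, SE; limma adjusted p = 0.216). The haem oxygenase genes HO1 and HO3 had differences of 0.09 ± 0.19 and 0.07 ± 0.21.

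**Figure D4:**
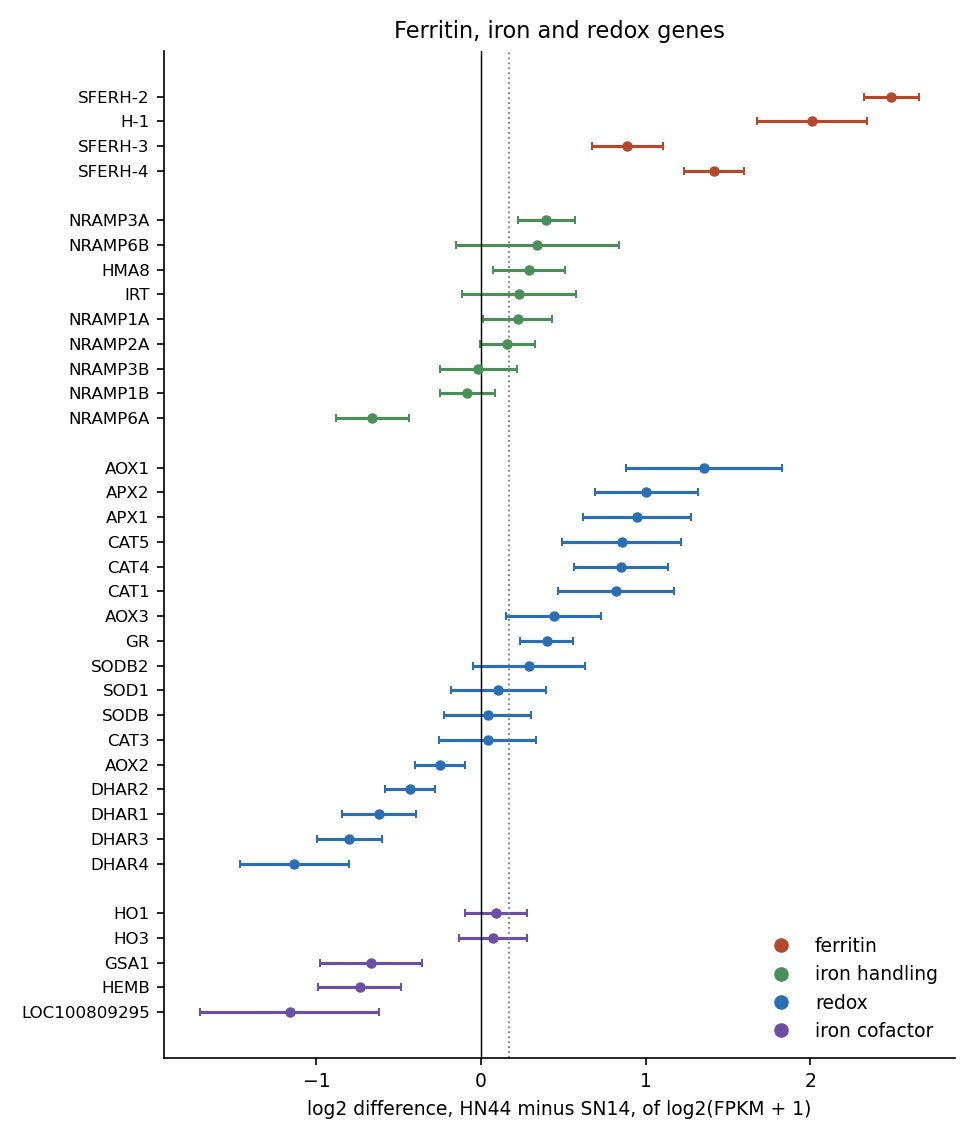
Points give the fitted log2 difference, HN44 minus SN14, on the log2(FPKM + 1) scale with 6 libraries, bars its SE, for the ferritin genes and the tested genes of the other lists without those of other families; the dotted line marks the median of all tested genes, 0.17. The ferritin genes lie between 0.89 and 2.49, and no gene of the other lists passed the adjusted threshold.

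Abundant leaf transcripts also differed between the libraries in which ferritin differed. The 7 Rubisco small subunit and light-harvesting genes found by the leaf marker list summed to 35527, 56618 and 43872 FPKM in HN44-1, HN44-2 and HN44-3, against 77679, 73798 and 65965 FPKM in SN14-1, SN14-2 and SN14-3. They took between 4.65% and 6.89% of all FPKM in the HN44 libraries and between 7.70% and 8.85% in the SN14 libraries. Of these genes, RBCS1, LHCB1-7, LOC100805310 and LOC547819 were lower in each HN44 library than in any SN14 library, as were 10.5% of all tested genes. RBCS2, CAB3 and LOC100793702 overlapped between the genotypes. RCABETA, not in the list, was higher in each HN44 library than in any SN14 library, as were 23.3% of all tested genes. In bulk leaf RNA, fewer cells of a type and less RNA per cell cannot be told apart, and the part of the leaf make-up in the ferritin difference was not tested. After the libraries were scaled by the median of ratios, the log2 differences of SFERH-2 and of the ferritin sum were 2.30 and 1.69, where the deposited scale gave 2.49 and 1.88.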

How the data were processed

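The deposited table gives FPKM per gene, computed by the authors, with gene spans, per the file headers; the aligners HISAT2 2.0.4 and Bowtie2 2.2.5, the quantifier RSEM 1.2.12 and the package DESeq2 1.4.5 are named without the step they served, per the submitters' processing notes. Symbols and chromosomes came from RefSeq assembly Glycine_max_v4.0, matching 37544 of 38907 NCBI gene numbers. No sequence was used here, so reads that fit several ferritin genes could not be traced. Read totals are unknown. A comparison of low values put the depth of each library at 1 to 1.07 times that of HN44-1. It kept only genes whose value lay close to that of HN44-1, between 18 and 36 genes for each other library. It could therefore not have shown a larger difference in depth, and whether the depths were equal was not tested.

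Genes that reached 1 FPKM in 3 or more libraries were tested with limma 3.58.1 (R 4.3.3) on log2(FPKM + 1) with a variance trend, all 6 libraries and no covariate, after a check on simulated data. Fold changes on this scale understate low genes. The 4 members and the lists, patterns on symbols and synonyms, were chosen with earlier results of these data known. Genes named are the members, per list the called genes or the 3 with the smallest p, the 3 nearest patterns per member and overlapping genes; others, marked as such, were picked after their values were seen. Alternatives were another pseudocount, scaling and filter, a replicate block and leaving out libraries. The comparison of protein and promoter sequences was not run.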

Additional observations from a re-analysis of the deposited data

How the results depend on the processing

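The log2 differences of the 4 ferritin genes and of their sum stayed positive under each alternative run. Leaving out each library gave 2.38 to 2.59 for SFERH-2, 1.67 to 2.36 for H-1, 0.76 to 1.09 for SFERH-3, 1.35 to 1.54 for SFERH-4 and 1.80 to 2.00 for the sum. Median-of-ratios scaling gave 2.30 for SFERH-2 and 1.69 for the sum, and summing with LOC100805950 gave 1.15 for SFERH-3. The share differences ranged without each library from 14.7 to 20.7 percentage points for SFERH-2, -23.1 to -18.0 for SFERH-3 and -0.86 to -0.39 for SFERH-4. Weighting FPKM by gene span gave -0.15 for SFERH-4. The H-1 share difference, 3.40, ranged from -1.61 without HN44-2 to 8.01; it reversed there because HN44-2 holds the highest H-1 share.

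Counts of all genes past the threshold were 1025 with 6 libraries and 15 to 961 in fits that left out a library: 150 without HN44-3, and 15 there with the filter applied again, a fit added after seeing the data, 276 without HN44-1 and 478 without SN14-3. The lists' counts of 0 became 2 redox genes without SN14-2 (CAT4 and GRF19), 1 redox gene without SN14-3 (DHAR4) and 1 iron cofactor gene without SN14-3 (HOP1). Each of these fits kept HN44-3. Deviations of libraries with the same label number correlated at -0.223, -0.436 and 0.03. Deviations were taken from the mean of each genotype, so these values depend on each other, and HN44-3 lay near a mixture of HN44-1 and HN44-2. They cannot show whether the libraries were paired. With the label number as a replicate block, 174 genes passed and none of the 3 lists had a call. Depth per library was not known, so counting error could not be given.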

Other observations

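Within each genotype the libraries stood in the same order by H-1 and by the sum of the 7 leaf marker genes. In HN44 the order was HN44-2, HN44-3 and HN44-1, with 534, 333 and 206 FPKM of H-1 beside sums of 56618, 43872 and 35527 FPKM. In SN14 it was SN14-1, SN14-2 and SN14-3, with 87.05, 81.4 and 76.5 FPKM of H-1 beside sums of 77679, 73798 and 65965 FPKM. Between the genotypes the values ran the other way, H-1 being higher and the marker sum lower in each HN44 library. SFERH-4 stood in the same order as H-1 in each genotype, so the order is not particular to H-1, while SFERH-2 and SFERH-3 stood in other orders. As HN44-3 lay near a mixture of HN44-1 and HN44-2, its middle place adds little to the order in HN44. The order was noticed after the values had been seen, and was not tested.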
